A study of Oryza sativa with 2 samples.

Results

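The array carried 120 probes named for 6 rice microRNA families that are linked to sulfate (miR395), phosphate (miR399) and copper (miR397, miR398, miR408 and miR528). They were chosen by name alone, from 42418 probes that were not controls, and every one was printed on the array as 2 spots (240 spots). The names cover 40 precursors: 23 of miR395, 11 of miR399, 2 each of miR397 and miR398, and 1 each of miR408 and miR528. Each precursor had 3 probes, whose names end in Mature, 5'seq or 3'seq. The names also give the chromosome of the precursor. The files define none of these 3 probe types and hold no probe or microRNA sequence (0 sequence columns), and the reference gene table lists no gene under these microRNA names (0 matches), so no sequences or coordinates are shown.

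Both samples were root hairs of the rice cultivar labelled Don-gin, taken from seedlings 3 days after germination, and both belong to 1 group titled "07g39940 over" (n = 2, samples 2 and 1 below). The labels do not explain "over", do not say whether the samples came from separate plants or lines, and give no control, and the series as used here therefore has no comparison between treatments. Hairs were collected by rubbing frozen roots, and cRNA labelled with Cy3 was made from 100 ng of total RNA for 1 array per sample. The signals of CSLD1 and XXT1, genes required for root hair growth, were 51117 and 47716 in sample 2 and 46042 and 48800 in sample 1.

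MicroRNAs are short RNAs that guide the cleavage or repression of matching messenger RNAs. They are cut from a hairpin in a longer primary transcript, which usually carries a poly(A) tail, whereas the mature microRNA carries none. In plants, miR395 is induced by sulfate shortage and acts on ATP sulfurylase and sulfate transporters. miR399 is induced by phosphate shortage and acts on PHO2, a regulator that lowers phosphate uptake, and the non-coding RNA IPS1 sequesters it. The copper families, induced when copper is short, act on messages of copper proteins such as laccases (miR397), superoxide dismutase (miR398) and plantacyanins (miR408), and in grasses miR528 acts on ascorbate oxidase. The kit named in the labels for making the cRNA is designed to start from poly(A) tails. A signal at these probes is therefore reported as the signal of the probe, and which RNA was bound was not tested. Signals are background-subtracted Cy3 intensities in arbitrary units. The strength of binding differs from probe to probe, so signals of different probes are not ranked.

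A probe was counted as detected when the scanner software called all of its usable spots well above background. By that rule 55 of the 120 probes (45.8%) were detected in both samples. One more was called in sample 2 alone, another in sample 1 alone, and 63 in neither, with signals from 1.42 to 13.4 in sample 2 and from 1.47 to 7.94 in sample 1. Over the 41044 probes that were not controls and had a usable spot the share was 82.3%, and over the 390 probes named for other microRNAs it was 55.1%. Counted by spot, 108 of 229 usable spots (47.2%) were called in both samples, against 82.1% of all spots. The call was lenient, since 6 of 24 random-sequence or artificial control probes received it. Above the highest of those control probes, which gave 49.9 in sample 2 and 44.0 in sample 1, lay 17 of the 120 probes in both samples (14.2%), against 67.1% of all probes and 22.8% of the other microRNA probes. These 17 came from miR528 (3 probes), miR408 (3), miR398b (3) and 6 precursors of miR399 (8). The present call of the authors' deposited table was given to 21 of the 120 probes, and to 74.5% of all probes.

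The probe types differed in how often they were detected. Of the Mature probes 32 of 40 (80.0%) were detected in both samples, of the 5'seq probes 10 of 40 (25.0%) and of the 3'seq probes 13 of 40 (32.5%). Among the other microRNAs on the array the order was the opposite, with 44 of 130 Mature probes (33.8%), 87 of 130 5'seq probes (66.9%) and 84 of 130 3'seq probes (64.6%). These counts use the lenient call. Above the highest control probe in both samples lay 8 of 40 Mature, 4 of 40 5'seq and 5 of 40 3'seq probes. Of the other microRNAs 20, 40 and 29 of 130 did, in the same order of types. No test was made of the difference between types. The Mature probes of a family are named for related RNAs and may share much of their sequence, so they are not independent. miR395 alone supplied 18 of the 32 detected Mature probes and 46 of the 80 probes of the other 2 types. The contrast was smaller in miR399, with 10 of 11 Mature, 6 of 11 5'seq and 8 of 11 3'seq probes detected. It was absent over the 4 copper families, with 4 of 6, 4 of 6 and 5 of 6. At the level of precursors, 7 of 40 had all 3 probes detected, namely miR398b, miR399d, miR399e, miR399f, miR399h, miR408 and miR528. A further 6 had 2 probes detected, 22 had 1 and 5 had none.

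All 3 probes of miR528, the family tied to ascorbate oxidase, were lower in sample 2 and by similar amounts. The precursor lies on chromosome 3, and the files assign its 5'seq and 3'seq probes to a transcript of locus Os03g0129400. The 3'seq probe gave 11389 in sample 2 and 16749 in sample 1, from 1 usable spot. Its other spot, left out for an outlier flag, gave 12206 in sample 2 and 17877 in sample 1. At 5'seq the 2 spots gave 6031 and 6076 in sample 2, against 9258 and 9003 in sample 1. All of these spots were lower in sample 2. The Mature probe gave 348 and 346 in sample 2, against 503 and 482 in sample 1, so that neither spot overlapped between the samples. Overlap, here and below, compares the 2 spots of a probe on 1 array with those on the other. It reflects spread between spots, not between samples, and its share over all probes was not computed. The log2 differences, sample 2 minus sample 1 after scaling each array to its 75th percentile, were -0.59 for 3'seq, -0.63 for 5'seq and -0.54 for Mature. The level in sample 2 was thus 1.45-fold to 1.54-fold below that in sample 1.

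Other probes of the same locus, taken because the miR528 probes are assigned to it, were also lower in sample 2. The array held 3 further probes of Os03g0129400, with 1 usable spot each. They gave 12390, 7817 and 7711 in sample 2, and the same probes gave 18009, 11500 and 11214 in sample 1. Their log2 differences lay between -0.59 and -0.57. Probes of 1 locus share its transcripts and are not replicates of the sample, so their agreement adds no separate support. Of all 33794 probes detected in both samples, 1.58% were lower in sample 2 by 0.5 or more on the log2 scale, a limit chosen after these values were seen, and of the brighter 50% of them 0.29% were. Among the 55 detected probes of the 6 families 4 were (7.27%), the 3 of miR528 and the 3'seq probe of miR397b. Because the limit followed the values, the passing of the miR528 probes was fixed in advance. They also belong to 1 precursor, so the shares are description only and no support for a difference. The SD of the log2 difference was 0.43 over all detected probes and 0.20 over the brighter 50% of them. To the brighter 50% belong the 5'seq and 3'seq probes of miR528, but not its Mature probe. With 1 array per sample no p-value can be given.

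The samples also differed in genes of other tissues. The 5 seed storage loci examined were all lower in sample 2, with summed signals of 92.4 in sample 2 and 4923 in sample 1. The 3 photosynthesis loci examined were all higher in sample 2, with sums of 359 in sample 2 and 46.0 in sample 1. These lists came from an earlier account of the same arrays. Their part in the difference of miR528 was not tested.

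miR408, the family tied to plantacyanins, had nearly equal signals in the samples at 2 of its 3 probes. Its precursor lies on chromosome 1, and the 5'seq and 3'seq probes are assigned to locus Os01g0322700. The 3'seq probe gave 3294 and 3420 at its 2 spots in sample 2, against 3301 and 3442 in sample 1. The Mature probe gave 809 and 869 in sample 2, against 812 and 861 in sample 1. The samples overlapped at both probes, and the log2 differences were -0.04 and -0.03. At 5'seq the spots gave 157 and 149 in sample 2, against 183 and 161 in sample 1, without overlap and with a log2 difference of -0.20. The locus had 2 further probes. One gave 2614 in sample 2 and 2921 in sample 1 (log2 difference -0.19), and the other 814 in sample 2 and 1005 in sample 1 (-0.34). After scaling, all 5 probes of miR408 and its locus were thus slightly lower in sample 2, with log2 differences from -0.34 to -0.03. Before scaling, the mean signal of the Mature probe was marginally higher in sample 2 (838 in sample 2 and 836 in sample 1), so its direction rests on the scaling.

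miR398, which acts on copper/zinc superoxide dismutase, had 2 precursors of unlike detection. For miR398b, on chromosome 7, all 3 probes were detected. The 3'seq probe gave 415 and 443 in sample 2, against 460 and 489 in sample 1 (log2 difference -0.18). At 5'seq the spots gave 252 and 310 in sample 2, against 310 and 361 in sample 1 (-0.29). The Mature probe gave 369 and 350 in sample 2, against 381 and 362 in sample 1 (-0.08). Both spots of each probe were lower in sample 2 than the same spot in sample 1, and after scaling the samples overlapped at none of the 3 probes. In unscaled signals they overlapped at Mature and 5'seq. The locus assigned to the 5'seq and 3'seq probes, Os07g0436350, had no further probe among those used. For miR398a, on chromosome 10, only the Mature probe was detected, with 28.4 and 46.7 in sample 2, against 30.2 and 42.1 in sample 1. Its log2 difference was 0.00025, smaller than the SD between its 2 spots on either array (0.51 in sample 2 and 0.34 in sample 1).

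miR397, the laccase family, was the reverse of miR395 in its probe types. Neither of its 2 Mature probes was detected, with signals of at most 1.69 in sample 2 and 1.61 in sample 1. Its 5'seq and 3'seq probes were detected in both samples in 3 of 4 cases, all below the highest control probe. The 3'seq probe of miR397b, on chromosome 2, gave 28.0 and 23.4 in sample 2, against 34.1 and 38.1 in sample 1. The samples did not overlap there, and the log2 difference of -0.53 had a range of -0.74 to -0.32 between the spots. Differences were -0.24 for the 5'seq probe of miR397b and -0.46 for the 3'seq probe of miR397a, on chromosome 6. For miR397a the 5'seq probe was well above background in sample 1 only, at 13.4, against 7.23 in sample 2. After scaling the probe was 1.90-fold lower in sample 2. That ratio uses a signal that was not called, so it is no lower bound, and it rests on 1 usable spot. The other spot, left out for an outlier flag, was called well above background in both samples, at 8.56 in sample 2 and 16.7 in sample 1. The 1 further probe of the locus assigned to miR397b, Os02g0160800, did not reach the detection call in sample 2 or in sample 1 (3.68 in sample 2 and 5.45 in sample 1).

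Over the 4 copper families, 13 of 18 probes were detected in both samples, and after scaling 12 of these were lower in sample 2 by some amount. The exception was the Mature probe of miR398a. Of the 13, miR528, miR408 and miR398b supplied 3 each, and probes of 1 precursor are not independent. Of all detected probes 44.6% were lower in sample 2. The direction of the smaller differences depends on how the arrays are scaled. Under scaling to the median, quantile and loess normalization, normexp background correction and the authors' deposited table, all 13 were lower in sample 2. Their medians ran from -0.38 to -0.15, against -0.24 in the main scaling. Over all detected probes the medians under these alternatives ran from -0.076 (median scaling) to 0.007 (normexp). The share of all probes that were lower was not computed for them, so the 13 of 13 cannot be set against the whole array. With outlier-flagged spots kept, 12 of the 13 were lower.

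miR399, the phosphate family, was detected at 24 of 33 probes, comprising 10 of 11 Mature, 6 of 11 5'seq and 8 of 11 3'seq probes. The Mature probes of miR399e, miR399f, miR399g and miR399h had signals of 607, 686, 537 and 611 in sample 2, and the same probes had 572, 596, 490 and 543 in sample 1. All 4 were slightly higher in sample 2, with log2 differences of 0.05, 0.17, 0.10 and 0.14. At miR399g the 2 spots of the probe differed more than the samples did, at 707.6 and 407.5 in sample 2, against 628 and 383 in sample 1. Under median scaling miR399e differed by -0.04, and in the authors' deposited table miR399g by -0.01, so their direction is not settled.

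Of the other Mature probes of the family, that of miR399i gave 67.7 in sample 2 and 72.3 in sample 1, above the control probes in both, and that of miR399k 43.2 in sample 2 and 42.8 in sample 1, below them. The Mature probe of miR399d gave 27.6 in sample 2 and 25.6 in sample 1. Those of miR399a, miR399b and miR399c lay between 12.3 and 14.9 in sample 2 and between 12.3 and 15.3 in sample 1. The probe of miR399j, at 6.52 in sample 2 and 7.10 in sample 1, was the only Mature probe of the family that was not detected in either sample.

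Among the 5'seq and 3'seq probes of miR399, 3 lay above the control probes in both samples. The 3'seq probe of miR399d, on chromosome 6, gave 90.2 and 78.5 in sample 2, against 67.2 and 56.3 in sample 1, with no overlap and a log2 difference of 0.42. This was the largest positive difference among the 55 detected probes. In the authors' deposited table it was 0.16, and after normexp background correction 0.21. The same precursor's 5'seq probe differed the other way (-0.43, 1 usable spot, 22.9 in sample 2 and 30.2 in sample 1). The 3 probes of miR399d, including Mature at 0.07, thus did not move together. For miR399e, on chromosome 1, the 5'seq probe gave 65.4 and 56.5 in sample 2, against 76.9 and 65.1 in sample 1, with a log2 difference of -0.25. The samples overlapped slightly there in unscaled signals, and not after scaling. The 3'seq probe of miR399i, on chromosome 2, gave 79.6 and 79.5 in sample 2, against 75.5 and 72.9 in sample 1 (0.07), and its direction changed under 4 of the 6 alternative settings that recompute it. Over the family 11 of the 24 detected probes were higher in sample 2 and 13 lower, with a median difference of -0.02.

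One spot of miR399 shows the limit of a single reading. Its 5'seq probe for miR399a gave 54.1 in sample 2 and 11.6 in sample 1 at its first spot, both called well above background, but 3.32 in sample 2 and 5.42 in sample 1 at its second, neither of them so called. The spots disagreed in direction, and the probe was not counted as detected.

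miR395, the sulfate family, was detected mainly through its Mature probes. Of these, 18 of 23 were detected in both samples, against 0 of 23 5'seq and 0 of 23 3'seq probes. For miR395f the 5'seq probe was well above background at both spots in sample 2 only, at 10.9, against 9.24 in sample 1. With 1 called spot per probe taken as enough, a rule chosen after seeing the data, 20 rather than 18 probes of the family were detected. Those added were the 5'seq probes of miR395f (10.9 in sample 2 and 11.3 in sample 1 at the spot called in both) and miR395h (8.14 in sample 2 and 9.83 in sample 1). The 18 detected Mature probes had signals from 12.0 to 30.7 with a median of 15.4 in sample 2, and from 13.7 to 31.9 with a median of 16.2 in sample 1. None lay above the highest control probe on either array. By chromosome, 12 of 14 Mature probes were detected on chromosome 4, 5 of 5 on chromosome 8 and 1 of 4 on chromosome 9. The one on chromosome 9, miR395w, gave 23.7 in sample 2 and 23.2 in sample 1. The 5 Mature probes that were not detected were those of miR395c, miR395o, miR395t, miR395u and miR395v.

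In the main scaling the 18 detected Mature probes of miR395, all below the highest control probe, hardly differed between the samples. Their log2 differences ran from -0.47 to 0.18 with a median of -0.02, and 7 were higher in sample 2 and 11 lower. Among the 17 with 2 usable spots, both spots moved the same way in 6. The furthest apart was miR395r, on chromosome 4, with 12.4 and 11.6 in sample 2, against 16.0 and 16.7 in sample 1. The samples did not overlap there, and the log2 difference was -0.47, which was -0.13 with normexp correction and -0.70 with quantile normalization. Under quantile normalization all 18 were lower in sample 2, and 17 were under median scaling, under loess, under normexp and in the authors' deposited table, so no direction of the family is claimed.

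Across all 6 families 0 of the 55 detected probes were 2-fold apart, where 2.81% of all detected probes were. The differences ran from -0.63 to 0.42 on the log2 scale with a median of -0.04, against a median of 0.02 over all detected probes. Higher in sample 2 were 19 probes (34.5%), against 55.4% of all detected probes. Of the 215 detected probes named for other microRNAs 105 were higher, with a median difference of -0.007. Probes of 1 family are not independent, and no test was made. Of the 50 detected probes with 2 usable spots, 28 had both spots on the same side, with 17 lower and 11 higher in sample 2. The share over all probes was not computed. Both spots of a probe come from the same sample and array, so their agreement does not describe spread between samples. By family, both spots agreed for 2 of 2 such probes of miR528, 3 of 3 of miR408, 3 of 4 of miR398, 2 of 3 of miR397, 12 of 21 of miR399 and 6 of 17 of miR395. The median SD between the spots of a detected probe was 0.13 in sample 2 and 0.15 in sample 1 on the log2 scale.

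The messages on which these microRNAs act, and genes of the same pathways, were listed by locus identifier, and 17 of 22 listed loci had a probe on the array. Names are given only where the reference table places that name on the same chromosome. At least 1 probe was detected in both samples for 13 loci, 7 of them higher (55.4% of all detected loci were) and 6 lower in sample 2, and 0 were 2-fold apart, where 2.29% of all detected loci were. Another 3 were not detected, namely Os01g0770800, Os03g0709100 and Os05g0458600, the last listed as a laccase. All spots of SODCC.1, a copper/zinc superoxide dismutase, carried an outlier flag. Among the 5 loci without a probe were SODCC.2 and Os05g0557700, listed as the message on which miR399 acts. The listed target of miR399 was thus not measured, and that of miR397 was measured but not detected. In the sulfate list, Os03g0743900 gave 7260 in sample 2 and 6019 in sample 1 (log2 difference 0.24), while Os03g0195500 (51.8 in sample 2 and 48.8 in sample 1) and Os03g0195300 (179 in sample 2 and 191 in sample 1) differed by 0.05 and -0.12. In the phosphate list PHR2, the transcription factor of the phosphate starvation response, gave 1037 in sample 2 and 1029 in sample 1. Os03g0146800 gave 26.7 in sample 2 and 15.5 in sample 1 at its detected probe (0.76), below the control probes in both samples.

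Of the 8 detected loci of the copper list 4 were higher and 4 lower in sample 2. One of them, sodCp, the plastid copper/zinc superoxide dismutase, was higher in sample 2 at all 5 probes, with a mean signal of 787 in sample 2 and 586 in sample 1. Its log2 difference was 0.39 with an SD of 0.04 between probes. CCS, the copper chaperone of superoxide dismutase, differed by 0.12 over 3 detected probes (SD 0.02), and SPL9, a transcription factor, by 0.02. The copper transporters COPT1 (19261 in sample 2 and 22206 in sample 1) and COPT7 (24996 in sample 2 and 26663 in sample 1) differed by -0.24 and -0.13. Os03g0219200 (8226 in sample 2 and 8398 in sample 1) and Os05g0424700 (119 in sample 2 and 140 in sample 1) differed by -0.06 and -0.26. Os06g0567900 of the same list was detected at 1 of 2 probes, with 31.0 in sample 2 and 23.6 in sample 1 (0.36), below the control probes in both samples. No relation between the microRNA probes and these loci can be tested with 2 samples.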

How the data were processed

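Each sample was hybridised to 1 array of a probe design on the IRGSP5 build. The scanner software was Agilent Feature Extraction, 11.5.1.1 per the file headers and 9.1 per the submitters' processing notes. The intensity analysed is the processed Cy3 signal, background-subtracted and detrended per the file headers and not normalized between arrays. The authors' deposited table of log2 values and present calls served as an alternative. The sources used here do not give its making. Its columns followed the log2 median spot signal (r across spots 0.9995 in sample 1 and 0.9999 in sample 2), with medians of 8.19 in both, so they are uncentred.

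Of 45151 spots per array, 1417 scanner controls, 590 named control spots and 1436 spots flagged as outliers in sample 2 or sample 1 were left out (11 of the 240 microRNA spots). Log2 signals were scaled by the 75th percentile of each array (2643 in sample 2 and 2583 in sample 1), and usable spots of a probe were averaged, so that signals of a probe are geometric means. Both arrays came from 1 slide and 1 scan, with 0 saturated spots. Well above background were 85.0% of spots in sample 2 and 83.2% in sample 1, with lowest signals so called of 7.14 in sample 2 and 7.33 in sample 1. For a probe called in 1 sample only, the fold is taken against the higher of that lowest signal and the probe's own. The number of arrays limits the precision, and their spread may be technical.

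No test was run, since each sample has 1 array. The rule for naming probes took those above the highest control probe in both samples, detected ones at least 2-fold apart, and, in a family with neither, the detected one furthest apart. Other probes named were chosen after their values were seen. The families, gene lists and limits were chosen with earlier results of these data known. Symbols were matched to RefSeq genes of assembly ASM3414082v1 (8 of 22 target symbols matched). Python 3.11.15, numpy 2.4.6, pandas 2.3.3 and, in R 4.3.3, limma 3.58.1 were used, the last for normexp (offset 50, on the median spot signal since the files hold no mean), quantile and loess (span 0.3) normalization. The difference calculation was tested on simulated data.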

Additional observations from a re-analysis of the deposited data

How the results depend on the processing

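The count of detected probes, 55, was 56 without replicate 1 and 56 without replicate 2, 55 with outlier-flagged spots kept, 73 by the software's positive-and-significant call and 58 with 1 called spot per probe (an alternative chosen after seeing the data). It was 21 by the authors' present call, which 74.5% of all probes received. The 17 probes above the control probes remained 17 in number without replicate 1, without replicate 2, with flagged spots kept and with 1 called spot per probe. Without the filter on detection 2 probes and 2 listed loci were 2-fold apart, where 0 were with it, and 0 were under the other alternatives run. The probes were the 5'seq (8.86 in sample 2 and 1.86 in sample 1) and 3'seq (2.52 in sample 2 and 5.11 in sample 1) probes of miR395j, and the loci Os03g0146800 and Os06g0567900. The median log2 difference of the detected probes, -0.04, was -0.25 under quantile normalization and between -0.15 and -0.02 under the other alternatives. For the 19 probes chosen by rule, the sign changed in 6 of 114 differences recomputed under 6 settings. The probes of miR528 stayed between -0.72 and -0.47 and kept their sign throughout. Differences could not be recomputed without a replicate, since each sample has 1 array. No paired analysis was possible because there is only 1 group. The signal over background limits the dim probes, above all those of miR395 and miR397, none of which exceeded the control probes.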
